A study of Mus musculus with 36 samples.

Results

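The CC chemokines described here are 9 genes, *Ccl2*, *Ccl3*, *Ccl4*, *Ccl5*, *Ccl6*, *Ccl7*, *Ccl9*, *Ccl12* and *Ccl24*, taken by symbol from a table of 27562 genes and read in all 36 libraries of 12 groups. RNA was sequenced from alveolar macrophages (AΦ) and monocytes sorted from lungs of chimeric mice made from young adult males. In these animals C57BL/6J (CD45.2) recipients were irradiated with the chest shielded, given busulfan and transplanted with marrow of the congenic CD45.1 strain B6.SJL-Ptprc a Pepc b/BoyJ, so the FA controls carried the graft as well. The mice breathed filtered air (FA) or concentrated ambient fine particles (PM2.5) for 4 or 32 weeks. AΦ of CD45.2 origin are called tissue-resident (TR-AΦ) and those of CD45.1 origin bone marrow-derived (BM-AΦ).

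TR-AΦ were profiled at 4 and 32 weeks and BM-AΦ at 32 weeks, since too little RNA of the latter was obtained at 4 weeks. CD45.2 monocytes were profiled at 4 weeks. For the 32-week monocytes the labels give a number (1 or 2) in place of an origin, and the macrophages' key to these numbers was applied to them: 1 for CD45.1, 2 for CD45.2. Each population had 3 FA and 3 PM2.5 libraries, and a group's 3 libraries carry the numbers 0, 1 and 2. AΦ were gated as CD64+, CD11c high and CD11b low, and monocytes as Ly6G-, MHC II-, CD64 low and CD11b high, so the congenic mark separates origin but not subsets within a gate. The 4- and 32-week mice were separate cohorts, and time, age and cohort cannot be told apart.

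Chemokines are small secreted proteins that bind to matrix, form gradients and pull leukocytes along them through G protein-coupled receptors. In the CC family the first of the conserved cysteines stand next to each other. CCL2, CCL7 and CCL12 act on CCR2 and bring monocytes out of marrow and blood, CCL3, CCL4 and CCL5 draw T cells, NK cells and macrophages and act in part on CCR1, CCL6 and CCL9 are mouse ligands of CCR1, and CCL24 (eotaxin-2) acts on CCR3 of eosinophils.

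The adjacent cysteine codons that give the family its name are shown for 8 members because they mark what these genes have in common in sequence. Each window is 36 bases of coding sequence, 5′ to 3′ on the gene's strand, from GENCODE transcripts on GRCm38, and the capitals mark the cysteine pair.

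Ccl2: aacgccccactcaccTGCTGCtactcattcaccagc

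Ccl7: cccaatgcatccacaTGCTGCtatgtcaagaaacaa

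Ccl12: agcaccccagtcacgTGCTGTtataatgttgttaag

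Ccl4: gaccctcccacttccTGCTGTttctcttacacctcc

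Ccl5: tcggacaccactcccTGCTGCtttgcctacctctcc

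Ccl6: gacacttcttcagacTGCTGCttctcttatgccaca

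Ccl9: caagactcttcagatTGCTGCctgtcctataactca

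Ccl24: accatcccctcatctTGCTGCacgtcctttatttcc

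The pair lies in exon 3 of *Ccl6* and *Ccl9* and in exon 2 of the other members. Over the whole coding sequence the closest pairs were *Ccl3* and *Ccl4* (68.1% identical bases), *Ccl6* and *Ccl9* (65.1%) and *Ccl7* and *Ccl12* (63.2%). The longest run of identical bases in the alignment of the *Ccl6* and *Ccl9* coding sequences was 23 bases. Untranslated parts were not compared, and whether reads could fit both genes was not tested.

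On GRCm38 (mm10) 8 of the 9 genes lie on chromosome 11. *Ccl2* (chr11:82035571-82037453, plus strand), *Ccl7* (chr11:82045712-82047525, plus) and *Ccl12* (chr11:82101845-82103400, plus) stand in a row. *Ccl5* (chr11:83525778-83530518, minus), *Ccl9* (chr11:83572919-83578636, minus), *Ccl6* (chr11:83587882-83593087, minus), *Ccl3* (chr11:83647844-83649355, minus) and *Ccl4* (chr11:83662584-83664683, plus) form a second cluster, and *Ccl24* lies at chr5:135569937-135573049 on the minus strand. The file gives wider loci for *Ccl2* and *Ccl6*, which take in *Gm17268* and *E230016K23Rik* on the opposite strand. The kit marks strand, but the strand setting of the counting is not given in the sources used here, so for *Ccl2* and *Ccl6* a share from the overlapping gene was not tested. *E230016K23Rik* was itself listed at 0.762 to 4.94 FPKM over the 36 libraries, against 351 FPKM or more for *Ccl6*.

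*Ccl6* and *Ccl9* are neighbours with opposite levels in the sorted cells, as given below, so their promoters are printed side by side. These are the RefSeq windows on GRCm38.p6 from 250 bases before to 50 bases after the start of transcription, *Ccl6* at chr11:83593038-83593337 and *Ccl9* at chr11:83578587-83578886, both on the minus strand. Capitals mark matches, on either strand, to the TATA box (TATAAA), the CCAAT box, the kappa B motif (GGG, any 5 bases, then CC) or the AP-1 motif (TGA, any base, then TCA).

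Ccl6: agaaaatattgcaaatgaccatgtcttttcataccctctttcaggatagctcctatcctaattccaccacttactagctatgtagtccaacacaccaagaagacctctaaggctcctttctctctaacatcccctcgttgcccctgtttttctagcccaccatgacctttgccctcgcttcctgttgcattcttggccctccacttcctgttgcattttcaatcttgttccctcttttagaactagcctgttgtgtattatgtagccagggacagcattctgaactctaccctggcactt

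Ccl9: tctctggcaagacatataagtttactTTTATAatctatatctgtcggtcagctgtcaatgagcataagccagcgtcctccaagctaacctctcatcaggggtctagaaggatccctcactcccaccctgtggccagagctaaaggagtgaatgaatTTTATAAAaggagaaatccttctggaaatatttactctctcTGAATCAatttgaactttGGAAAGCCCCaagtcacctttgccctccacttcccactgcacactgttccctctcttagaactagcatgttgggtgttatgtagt

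The *Ccl6* window held none of the 4 motifs. The *Ccl9* window held a TATA box match at -224, an overlapping pair of them at -94 and -92, an AP-1 match at -53 and a kappa B match at -35 (positions from the start of transcription). Of all 32851 windows of the table, 13.6% held the TATA motif, 50.8% the kappa B motif, 7.81% the AP-1 motif and 37.4% the CCAAT motif. Aligned end to end, the 2 windows were 47.8% identical, within the 45.0 to 50.8% of the other pairs among the 4 members with an entry (*Ccl3*, *Ccl6*, *Ccl9* and *Ccl12*). Such a figure does not measure stretches that the windows share at different positions. Both windows hold tgttccctc, then ttagaactagc and ttatgtag, closer to the end in *Ccl9*. A motif match is a string of letters, not a binding site.

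Values are FPKM, a count of fragments scaled to the length of the transcript and the size of the library, and can be set side by side between genes. The libraries' FPKM summed to 1839580 to 3339020 (median 2344710), and the values hold no count and so no depth per library. The AΦ marker list (10 genes) summed to 6640 to 14135 FPKM in the 18 AΦ libraries and to 263 to 1595 in the 18 monocyte libraries, and the monocyte list (10 genes) to 298 to 759 and to 1530 to 4708, so the markers went with both cell labels. The 4-week monocyte libraries numbered 2 stood apart: their neutrophil lists summed to 408 (FA) and 1156 FPKM (PM2.5), against 33.1 to 123 in the other 16 monocyte libraries, and their T and NK cell lists to 123 and 153 against 6.43 to 29.0. The 4-week TR-AΦ libraries numbered 2 were also higher in markers of other cells, with *Ly6c2* at 16.5 and 4.78 FPKM and *Ccr2* at 31.6 and 34.3. Their *S100a9* was 13.8 and 34.6 FPKM, against at most 0.258 in the other 4 libraries of that age, their neutrophil list summed to 35.2 and 68.2 against at most 23, and their B cell list to 5.48 and 5.94 against at most 1.56. Counts of members below are therefore also given without all libraries numbered 2, an alternative chosen after the data were seen.

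Of the 9 members, 5 (*Ccl2*, *Ccl3*, *Ccl4*, *Ccl6* and *Ccl9*) were above 0 in all 36 libraries, and 4 (*Ccl5*, *Ccl7*, *Ccl12* and *Ccl24*) were listed at 0 in at least 1. *Ccl6* stood far above the rest: it ranked 100 of the table's genes by mean FPKM in AΦ and 354 in monocytes, whereas *Ccl24* ranked 13579 and 11677. *Ccl6* made up a median of 95.1% (range 81.2 to 98.1%) of the 9 genes' summed FPKM in AΦ and 50.8% (29.4 to 62.1%) in monocytes. *Ccl9* took 1.49% of the sum in AΦ and 25.6% in monocytes by median.

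**Figure D1:**
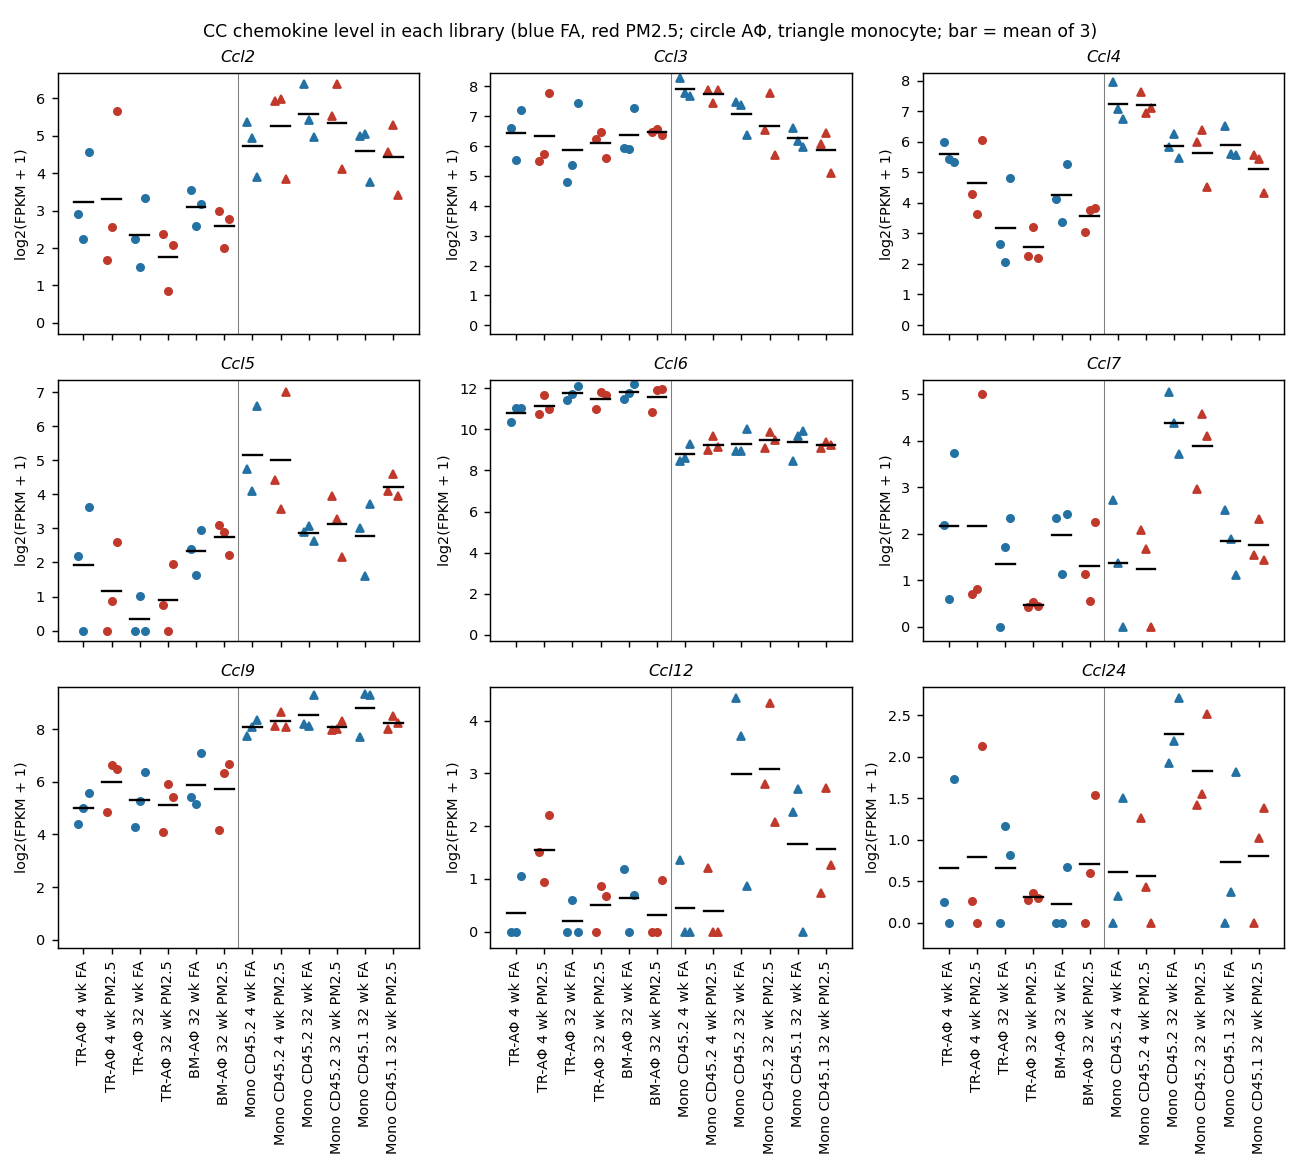
Level of each CC chemokine on the log2(FPKM + 1) scale (y axis) in the 36 libraries by group (x axis), with AΦ groups left and monocyte groups right of the vertical line, blue for FA, red for PM2.5, and a bar at the mean of 3 libraries. *Ccl6* is higher and *Ccl9* lower in AΦ, and *Ccl7*, *Ccl12* and *Ccl24* have their highest group means in the CD45.2 monocytes of 32 weeks.

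*Ccl6*, a CCR1 ligand made by myeloid cells, had its lowest AΦ library at 1319 FPKM and its highest monocyte library at 1041. In TR-AΦ at 4 weeks it was 1319, 2082 and 2075 FPKM under FA and 1712, 3285 and 2009 under PM2.5. At 32 weeks the 3 FA and 3 PM2.5 libraries read 2770, 3349 and 4499 and 2025, 3581 and 3296 FPKM in TR-AΦ, and 2848, 3545 and 4775 and 1851, 3863 and 4065 in BM-AΦ. Each AΦ group overlapped with its neighbours in the order of means. In monocytes *Ccl6* ran from 351 to 1041 FPKM (median 580), again with overlap between all 6 groups. Ordered by mean, the 12 groups ran from 453 FPKM (CD45.2 monocytes, FA, 4 weeks) to 3723 (BM-AΦ, FA, 32 weeks), and 10 of 11 neighbouring groups overlapped, the gap being the one between monocytes and AΦ.

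*Ccl9*, its neighbour, had the opposite order. It was 15.9 to 135 FPKM in AΦ (median 41.7) and 210 to 652 in monocytes (median 287), with no overlap between the 18 and the 18 libraries. Within each cell type no group stood apart: the TR-AΦ of 4 weeks read 20.1, 31.1 and 47.1 under FA and 28.2, 98.6 and 88.5 under PM2.5, and the monocyte groups of 4 weeks 215, 273 and 322 and 278, 404 and 273.

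The CCR2 ligands were low in AΦ. *Ccl2*, the main attractant of CCR2+ monocytes, had a median of 4.99 FPKM in AΦ (0.809 to 49.1) and 31.4 in monocytes (9.61 to 82.8). Its high AΦ values came from the 4-week libraries numbered 2, which read 22.7 (FA) and 49.1 FPKM (PM2.5), while the other 4 libraries of that age read 2.2 to 6.52. *Ccl7* gave the same 2 libraries as its AΦ maximum, 12.3 and 30.8 FPKM, against 0 to 4.40 in the other 16 AΦ libraries. In monocytes *Ccl7* was 5.61, 1.61 and 0 FPKM at 4 weeks under FA and 3.23, 2.17 and 0 under PM2.5. The CD45.2 monocytes of 32 weeks read 32.1, 19.7 and 12.2 under FA and 6.83, 22.8 and 16.0 under PM2.5, each above every other monocyte library. *Ccl12*, the third CCR2 ligand, was at most 3.61 FPKM in AΦ and was listed at 0 in 8 of the 18 libraries. It read 1.57, 0 and 0 (FA) and 1.3, 0 and 0 FPKM (PM2.5) in the 4-week monocytes, and 20.4, 12 and 0.824 and 5.98, 19.2 and 3.22 in the CD45.2 monocytes of 32 weeks. Those groups overlapped through the library at 0.824.

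*Ccl3* and *Ccl4*, both induced by inflammatory signals, were present everywhere. *Ccl3* was 26.5 to 220 FPKM in AΦ (median 78) and 33.3 to 307 in monocytes (median 131). *Ccl4* was lower than *Ccl3* in AΦ, 3.20 to 65.5 FPKM (median 13.0) against 19.0 to 246 in monocytes (median 68.6). Both were highest in the 4-week monocytes, where *Ccl3* read 307, 220 and 204 (FA) and 234, 174 and 234 FPKM (PM2.5), and *Ccl4* 246, 133 and 106 and 195, 122 and 136. *Ccl5*, a product of T and NK cells as well as of myeloid cells, was at most 11.3 FPKM in AΦ, where 5 of 18 libraries were listed at 0, and 2.04 to 127 in monocytes. The top values were again libraries numbered 2 at 4 weeks, 94.6 and 127 FPKM, against 25.6, 16.2, 20.4 and 10.9 in the other 4 libraries of that population.

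*Ccl24* was the lowest member, at 0 to 3.37 FPKM in AΦ and 0 to 5.54 in monocytes. Its highest group mean was that of CD45.2 monocytes at 32 weeks under FA (3.96 FPKM, with 2.79, 3.54 and 5.54), followed by the PM2.5 libraries of the same cells at 1.68, 1.93 and 4.70. Apart from *Ccl4*, *Ccl6* and *Ccl9*, with 10 each, every member had overlap in all 11 pairs of neighbouring group means.

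The first comparison set AΦ against monocytes of the same origin and time. The libraries were taken as unpaired, though populations of the same time and exposure may share mice. At 4 weeks 6 of 9 members differed (limma, Benjamini-Hochberg adjusted p under 0.05) where 48.2% of the 13307 genes tested did, 1 higher in AΦ (22.6% of genes) and 5 lower (25.5%). In CD45.2 cells at 32 weeks 8 of 9 differed against a background of 47.3%, 1 higher (23.6% of genes) and 7 lower (23.7%). In CD45.1 cells 4 of 9 differed against 50.9%, 1 higher (27.1%) and 3 lower (23.8%), so the members' share was near the background there. The median log2 fold change of the members was -1.43, -2.68 and -0.96 in these comparisons, while that of all genes tested was -0.02, 0 and 0.03. Without the libraries numbered 2 the counts were 6, 9 and 5, where 5653, 5378 and 5856 of the 13307 genes passed (6408, 6291 and 6767 with them).

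*Ccl6* was the member higher in AΦ each time. Its log2 fold change was 1.95 ± 0.27 (SE, 6 against 6 libraries, adjusted p = 1.05e-06 by limma) at 4 weeks, 2.24 (adjusted p = 1.22e-07) in CD45.2 cells at 32 weeks and 2.41 (adjusted p = 3.41e-08) in CD45.1 cells, without overlap in any of them, as held in the higher direction for 13.6%, 12.9% and 16.1% of genes. *Ccl9* was lower by nearly the same amount in all: fold changes of -2.68 ± 0.45, -3.10 and -2.71, again without overlap, as held in the lower direction for 16.1%, 14% and 14.7% of genes. An exact two-sided permutation test of these differences gave 0.00216, the smallest p that 924 relabellings of 6 against 6 allow.

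**Figure D2:**
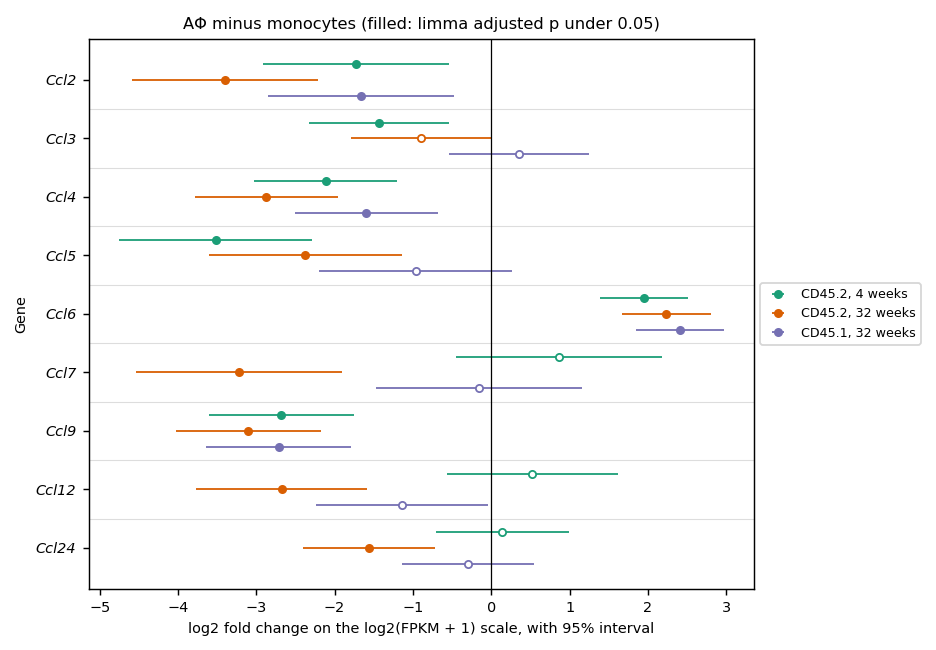
Fitted difference between AΦ and monocytes for each member (x axis, log2 fold change on the log2(FPKM + 1) scale, with its 95% interval) in CD45.2 cells at 4 weeks, CD45.2 cells at 32 weeks and CD45.1 cells at 32 weeks, with filled points for an adjusted p under 0.05. *Ccl6* lies right of 0 in all 3 comparisons and *Ccl9*, *Ccl4* and *Ccl2* left of it, while *Ccl7*, *Ccl12* and *Ccl24* are called in CD45.2 cells of 32 weeks alone among these comparisons.

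*Ccl4* was lower in AΦ in all 3 comparisons (log2 fold changes -2.11, -2.87 and -1.60). *Ccl2* was lower as well (-1.72, -3.40 and -1.66, adjusted p = 0.0151, 1.89e-05 and 0.0184). *Ccl5* was lower by -3.52 ± 0.60 at 4 weeks and by -2.38 in CD45.2 cells at 32 weeks, and its value of -0.96 in CD45.1 cells did not pass (adjusted p = 0.186). *Ccl3* passed at 4 weeks only (-1.43, adjusted p = 0.00757), with -0.89 (0.0939) and 0.35 (0.533) at 32 weeks. *Ccl7*, *Ccl12* and *Ccl24* passed in the CD45.2 cells of 32 weeks (-3.22, -2.68 and -1.56, adjusted p = 0.000143, 0.000141 and 0.00252). *Ccl12* and *Ccl24* had means under 1 FPKM in AΦ (0.682 and 0.655) and entered the test through the monocytes in which they were high, and with no minimum level their adjusted p were 0.000300 and 0.00425. At 4 weeks their values were 0.86, 0.53 and 0.14, and in CD45.1 cells -0.16, -1.14 and -0.30. Fold changes here are on the log2(FPKM + 1) scale, which understates the change of low genes such as *Ccl12* and *Ccl24*. With equal sums of FPKM the call of *Ccl2* in CD45.1 cells was lost (-1.30, adjusted p = 0.0583), as it was without the PM2.5 library 1 of CD45.1 monocytes (-1.44, 0.0545), and the 4-week call of *Ccl2* was lost without PM2.5 library 0 of TR-AΦ (-1.32, 0.0652) and that of *Ccl3* under quantile normalization (-1.04, 0.0710). *Ccl3* in CD45.2 cells passed without FA library 2 of TR-AΦ (-1.29, 0.0110) or PM2.5 library 2 of the monocytes (-1.14, 0.0407), and *Ccl12* in CD45.1 cells without FA library 2 (-1.55, 0.0155) or PM2.5 library 0 (-1.35, 0.0497) of the monocytes.

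Of the receptors, *Ccr2*, the receptor of CCL2, CCL7 and CCL12, was 159 to 938 FPKM in monocytes and 2.09 to 36.8 in AΦ, with log2 fold changes of -4.93, -6.06 and -4.55. *Ccr1*, through which CCL6 and CCL9 act, was instead higher in AΦ at 32 weeks (1.14 and 1.18, adjusted p = 0.0266 and 0.0209). Of the 14 receptor genes listed, 5 were expressed enough to test in these comparisons, and 3, 5 and 4 passed, with 0, 1 and 1 higher in AΦ. Of 11 other CC ligands only 3 were tested, and *Ccl8*, another CCR2 ligand, was lower in AΦ of CD45.2 origin at 32 weeks (-2.79, adjusted p = 4.97e-05).

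The next question was whether cells of bone marrow origin differed from those of host origin at 32 weeks. In AΦ 0 of 7 members tested passed, where 0.316% of 12665 genes did, and 1 of 7 (*Ccl5*) had an unadjusted limma p under 0.05, against 7.45% of genes. *Ccl12* and *Ccl24* were left out of every fit on AΦ alone because their mean over the 18 AΦ libraries was 0.682 and 0.655 FPKM, under the minimum of 1. The fitted mean of all 7 tested members was higher in BM-AΦ, with a median log2 fold change of 0.73 against 0.02 over all genes. *Ccl5* read 4.30, 2.10 and 6.78 (FA) and 7.51, 6.46 and 3.65 FPKM (PM2.5) in BM-AΦ, and 0, 1.01 and 0 and 0.701, 0 and 2.86 in TR-AΦ. Only the TR-AΦ library at 2.86 reached into the range of BM-AΦ. The log2 fold change was 1.91 ± 0.58 (95% interval 0.67 to 3.16, limma adjusted p = 0.283), and the exact two-sided permutation p was 0.00433. *Ccl4* (1.04), *Ccl2* (0.79), *Ccl7* (0.73), *Ccl9* (0.59), *Ccl3* (0.43) and *Ccl6* (0.08) had adjusted p-values of 0.696 to 0.994. Among the receptors *Ccr7* was higher in BM-AΦ (2.29, adjusted p = 0.0369). The T and NK cell list without *Cd2*, which AΦ themselves express, summed to 1.40 to 6.07 FPKM in BM-AΦ and 0 to 4.57 in TR-AΦ, and its part in the *Ccl5* values was not tested. The dendritic cell list (6 genes) summed to 8.93 to 29.8 FPKM in BM-AΦ and 1.46 to 4.86 in TR-AΦ, without overlap, and 1 of its 3 tested genes, *Ccr7*, passed. The monocyte list summed to 423 to 746 and 298 to 556 FPKM (0 of 9 tested genes passed), and the interstitial macrophage list without *Cd74* and *H2-Aa* to 46.3 to 344 (median 166) and 24.9 to 79.1 (median 37.6), with 0 of 7 past the threshold. The part of these lists in the members' values was not tested either.

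In monocytes at 32 weeks 1 of 9 members passed between CD45.1 and CD45.2 cells, where 0.669% of 12856 genes did (0.591% lower in CD45.1). *Ccl7* was 4.67, 2.70 and 1.17 (FA) and 1.92, 3.95 and 1.70 FPKM (PM2.5) in CD45.1 cells, all below the 6.83 to 32.1 of CD45.2 cells. The log2 fold change was -2.33 ± 0.48 (limma adjusted p = 0.0416), the exact permutation p was 0.00216, and 0.98% of genes were lower without overlap. The call was lost when any 1 of 9 libraries was left out (-2.47 to -2.15, adjusted p = 0.0605 to 0.143), and held without FA library 0 of CD45.1 cells or FA library 2 or PM2.5 library 0 of CD45.2 cells, and without all libraries numbered 2 the value was -2.18 (0.167). *Ccl24* (-1.29, adjusted p = 0.204), *Ccl12* (-1.42, 0.520), *Ccl2* (-0.95, 0.600) and *Ccl3* (-0.82, 0.413) were lower in CD45.1 cells but did not pass, and *Ccl5* (0.50), *Ccl9* (0.20), *Ccl6* (-0.09) and *Ccl4* (-0.24) lay nearer to 0.

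Interstitial and alveolar macrophage markers moved with *Ccl7*. Of that list of 9 genes, 3 were lower in CD45.1 than in CD45.2 monocytes: *Cd163* (-3.57), *Folr2* (-3.32) and *Lyve1* (-2.75), scavenger and endocytic receptors of tissue macrophages. The list summed to 3836 to 8117 FPKM in CD45.1 and 6780 to 10664 in CD45.2 monocytes, and to 439 to 1294 and 1006 to 3827 without *Cd74* and *H2-Aa*. *Cd163* was 29.3 to 130 FPKM in CD45.2 monocytes of 32 weeks and at most 5.45 in every other monocyte library. *Folr2* was listed at 0 in 1 CD45.1 library. Of the 10 AΦ markers 9 were tested and 3 were lower in CD45.1 monocytes, *Ear1* (-4.03), *Plet1* (-2.11) and *Krt79* (-1.75). *Ear1* was 0 to 4.67 FPKM in CD45.1 and 14.3 to 80.1 in CD45.2 cells, while the AΦ list as a whole summed to 263 to 852 and 351 to 1595. The markers' part in the *Ccl7* difference was not tested, and in sorted pools a change in the number of cells of a type and a change in RNA per cell cannot be told apart.

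Time was compared within TR-AΦ and within CD45.2 monocytes, the 2 populations sampled at both ages. In TR-AΦ the FA libraries gave 0 of 7 members past the threshold (0.782% of genes), with 2 of 7 by unadjusted limma p (12.1% of genes), and the PM2.5 libraries 0 of 7 (1.05%), with 1 of 7 by unadjusted p (15.2%). With both exposures together *Ccl4* fell, as did 3.35% of genes in that direction and 5.91% in both. It read 63.3, 42.0 and 39.5 (FA) and 18.4, 11.3 and 65.5 FPKM (PM2.5) at 4 weeks, and 5.26, 3.20 and 27.1 and 3.78, 8.33 and 3.57 at 32 weeks. The FA library at 27.1 was the only one of 32 weeks within the 4-week range. The log2 fold change was -2.25 ± 0.50 (limma adjusted p = 0.0187), with an exact permutation p of 0.00866. The call was lost without FA library 0 of 4 weeks (-2.15, adjusted p = 0.0506) and in a fit of the groups compared alone (-2.25, 0.0586), and among FA libraries it was gained without FA library 2 of 32 weeks (-3.23, 0.0464). *Ccl7* (-1.26), *Ccl2* (-1.21), *Ccl5* (-0.93), *Ccl3* (-0.40) and *Ccl9* (-0.28) were lower and *Ccl6* (0.66, adjusted p = 0.147) higher at 32 weeks without passing. Under FA alone the *Ccl6* libraries of the 2 ages did not overlap (0.96, adjusted p = 0.300), as 7.62% of genes did in that direction, nor did those of *Ccl4* (-2.41, 0.157), as 7.94% did in the lower direction. Under PM2.5 alone *Ccl4* (-2.10, 0.178) and *Ccl7* (-1.70, 0.463) were lower without overlap, as were 8.23% of genes. For *Ccl2* and *Ccl7* the 4-week TR-AΦ libraries numbered 2, with *C1qa* at 79.2 and 197 FPKM, set the upper end. A term for the libraries numbered 2 lay within each time point, so that fit gave the change at those libraries. Its values are thus not corrected for them. There *Ccl2* (-2.67, limma adjusted p = 0.0268) and *Ccl7* (-2.87, 0.0363) passed and *Ccl4* did not (-2.19, 0.134).

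In CD45.2 monocytes 5 of 9 members changed between 4 and 32 weeks, where 14.9% of 12856 genes did: *Ccl7*, *Ccl12* and *Ccl24* rose (7.06% of genes) and *Ccl4* and *Ccl5* fell (7.83%). *Ccl7* rose by 2.82 ± 0.48 on the log2 scale (limma adjusted p = 0.00154) with no overlap, as 4.06% of genes did in that direction, from a mean of 2.10 ± 2.13 to 18.3 ± 8.80 FPKM (SD, n = 6 each). These CD45.2 libraries of 32 weeks are also the ones set against CD45.1 monocytes above. *Ccl12* rose by 2.61 ± 0.66 (adjusted p = 0.0158), from 4 of 6 libraries listed at 0 to none. *Ccl24* rose by 1.46 ± 0.39 (adjusted p = 0.0215), from 0.637 ± 0.780 to 3.36 ± 1.53 FPKM. *Ccl24* reached the minimum mean of 1 only through its level in these 32-week cells, since CD45.1 monocytes had a mean of 0.905 FPKM. Without that minimum the adjusted p of *Ccl24* was 0.0430 and that of *Ccl12* 0.0387. *Ccl4* read 106 to 246 FPKM at 4 weeks and 21.9 to 82.4 at 32 weeks, without overlap (3.66% of genes in that direction), and fell by 1.5 ± 0.34 (adjusted p = 0.00883).

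*Ccl5* fell by 2.07 ± 0.58 (adjusted p = 0.0257), from 10.9 to 127 FPKM down to 3.44 to 14.6. That call did not stand without the FA library 2 of 4 weeks (-1.71, adjusted p = 0.0691) or the PM2.5 library 2 of 4 weeks (-1.57, 0.0534), nor without FA library 0 (-2.08, 0.0541), PM2.5 library 1 (-2.11, 0.0509) or PM2.5 library 2 (-1.83, 0.0610) of 32 weeks. With every library numbered 2 left out, 4 of 9 members passed, where 989 of all genes did (1914 with them). The value of *Ccl5* was then -0.91 (adjusted p = 0.179). The call of *Ccl12* was lost in the fit with a term for the libraries numbered 2 (1.76, limma adjusted p = 0.162). That value is the change at these libraries, and *Ccl12* was listed at 0 in those of 4 weeks. The call of *Ccl24* was lost with 0.1 in place of 1 added before the log (2.97, adjusted p = 0.0569) and without FA library 0 (1.31, 0.0502), FA library 1 (1.39, 0.0510) or PM2.5 library 2 (1.32, 0.0564) of 4 weeks, and 3 members passed without that last library. *Ccl3* was lower at 32 weeks (-0.94, adjusted p = 0.0721) and passed without PM2.5 library 1 of 32 weeks (-1.22, 0.0152). *Ccl2* (0.47), *Ccl6* (0.37) and *Ccl9* (0.14) had adjusted p-values of 0.435 to 0.806.

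**Figure D3:**
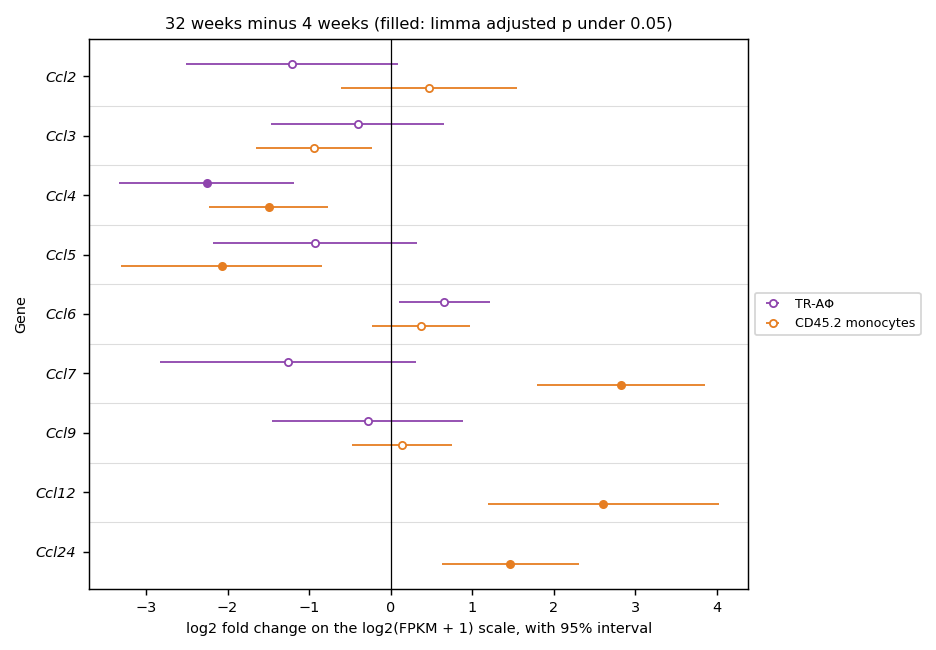
Fitted difference between 32 and 4 weeks for each member (x axis, log2 fold change on the log2(FPKM + 1) scale, with its 95% interval) in TR-AΦ and CD45.2 monocytes, both exposures together, with filled points for an adjusted p under 0.05. *Ccl7*, *Ccl12* and *Ccl24* lie right of 0 in monocytes, *Ccl4* lies left of 0 in both populations, and *Ccl12* and *Ccl24* have no TR-AΦ estimate because they were under the minimum level.

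The difference between the 2 populations in the effect of time was itself tested, and 2 of 9 members passed, both lower, where 7.88% of 13307 genes did (4.35% lower). For *Ccl7* the change in TR-AΦ minus that in monocytes was -4.08 ± 0.91 on the log2 scale (limma adjusted p = 0.00444) and for *Ccl12* -3.20 ± 0.75 (0.00709). *Ccl12* entered this test through its level in the 32-week monocytes, and with no minimum level its adjusted p was 0.0116. Without the libraries numbered 2 the count was 2 as well, where 716 of all genes passed (1049 with them). *Ccl24* did not pass (-1.71, adjusted p = 0.0723), though it did without PM2.5 library 1 of TR-AΦ (-1.90, 0.0494) or without FA library 2 (-1.93, 0.0473) or PM2.5 library 0 (-1.88, 0.0493) of the 4-week monocytes. *Ccl4* gave -0.76 (adjusted p = 0.539), so a difference between its fall in TR-AΦ and in monocytes was not detected.

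Other cell markers moved with time in the monocyte gate. All 9 interstitial macrophage genes rose, among them *Cd163* (4.63), *C1qa* (4.57), *Folr2* (3.35) and *Lyve1* (3.20), and their sum went from 720 to 3753 FPKM at 4 weeks to 6780 to 10664 at 32 weeks. Most of that sum was *Cd74* and *H2-Aa*, and without them it was 106 to 589 and 1006 to 3827 FPKM. *Folr2* was listed at 0 in 1 of the 4-week libraries and in none of 32 weeks. *C1qa* was 0.780 and 1.0 FPKM in the 4-week libraries numbered 2, in which *Ccl7* and *Ccl12* were listed at 0, and 55.4 to 167 in the other 4 of that age. Of 11 T and NK cell genes 6 were tested: *Gzma* (-3.05), *Gzmb* (-2.83) and *Prf1* (-2.02), the granule proteins of cytotoxic cells, fell, and *Cd2* (1.09) rose. The list summed to 9.06 to 153 FPKM at 4 weeks and 10.1 to 27.1 at 32 weeks, and *Ncr1*, which marks NK cells, was listed at 0 in all 12 monocyte libraries of 32 weeks. Of 9 AΦ genes tested 4 rose, among them *Ear1* (4.2) and *Plet1* (2.95), and 3 fell, among them *Fabp4* (-2.19) and *Pparg* (-1.80), and the list summed to 428 to 781 FPKM at 4 weeks and 351 to 1595 at 32. Of 10 monocyte genes 3 fell (*Treml4* -2.53, *Ace* -1.74 and *Nr4a1* -1.27), and their sum was 3639 to 4708 and 1530 to 3657 FPKM. Of 6 neutrophil genes tested 2 fell (*Retnlg* -2.67 and *Csf3r* -1.01), and of 3 endothelial and stromal genes *Cldn5* (1.70) and *Cdh5* (1.48) rose and *Pecam1* (-1.58) fell. The part of these markers in the changes of *Ccl7*, *Ccl12*, *Ccl24*, *Ccl4* and *Ccl5* was not tested.

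**Figure D4:**
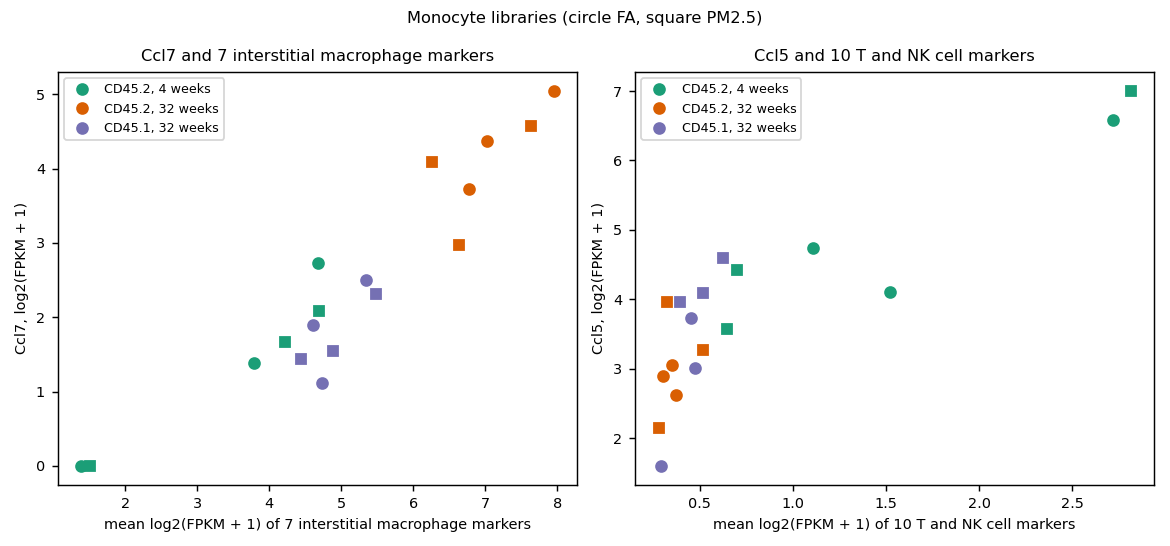
*Ccl7* against 7 interstitial macrophage markers (left, the list without *Cd74* and *H2-Aa*) and *Ccl5* against 10 T and NK cell markers (right, the list without *Cd2*) in the 18 monocyte libraries, all as log2(FPKM + 1) with the markers as their mean, circles for FA and squares for PM2.5. *Ccl7* is highest where the markers are, in the CD45.2 monocytes of 32 weeks, and the top *Ccl5* values are the 4-week libraries numbered 2.

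Within groups the same libraries tended to be high in both. Over the 18 monocyte libraries, as deviations from their group means, *Ccl7* had Pearson r = 0.88 and Spearman rho = 0.83 with the full interstitial macrophage list, and r = 0.81 without the 2 libraries farthest from the median of the list. *Ccl2* had r = 0.80 (rho = 0.84, r = 0.75 without the 2), *Ccl12* r = 0.46 (0.53, 0.55) and *Ccl24* r = -0.21 (-0.18, -0.25). *Ccl5* had r = 0.83 with the T and NK cell list (rho = 0.86, r = 0.63 without the 2 libraries). These are descriptions without a test, and the points share a library each, with its depth and cell make-up.

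The fall of *Ccl4* with time stood beside a wider fall of inflammatory genes. Of 14 NF-kappa B targets and inducers, all tested, 12 fell and none rose in TR-AΦ, among them *Nfkbiz* (-3.27), *Il1b* (-3.10), *Tnf* (-3.07) and *Il1a* (-2.72), and 10 fell and none rose in CD45.2 monocytes, among them *Tnf* (-2.18), *Il1b* (-1.64), *Rel* (-1.51) and *Nfkbiz* (-1.46). *Tnf* was 469 to 685 FPKM in the 6 TR-AΦ libraries of 4 weeks and 55.2 to 99.6 in the 6 of 32 weeks. Immediate early genes respond within minutes to a stimulus, and the list of them also held the heat shock gene *Hspa1a*. Of its 12 genes 5 fell in TR-AΦ (*Egr1* -2.76, *Hspa1a* -2.66, *Ier2* -1.71 and *Zfp36* -1.04 among them) and 2 in monocytes (*Ier2* -0.95 and *Zfp36* -0.79). *Ccrl2*, a receptor that binds chemerin and does not signal, fell in both (-2.52 and -2.15), and *Ccl8* rose in monocytes (2.57, adjusted p = 0.00941). Over the 18 AΦ libraries, as deviations from group means, *Ccl3* had r = 0.88 (rho = 0.83, 0.77 without the 2 farthest libraries) and *Ccl4* r = 0.84 (0.84, 0.70) with the NF-kappa B list. In monocytes the same r were 0.37 and 0.17, and the part of this list in the *Ccl4* fall was not tested.

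The question the study was built for, the effect of PM2.5 against FA, gave 0 members past the limma threshold used here in each of the 6 populations. The share of all genes that passed was 0.0079% in TR-AΦ at 4 weeks, 0% in TR-AΦ and 0.0158% in BM-AΦ at 32 weeks, 0.00778% in monocytes at 4 weeks, and 0% in both CD45.2 and CD45.1 monocytes at 32 weeks. The adjusted p-values of the members by limma were 0.952 to 1, 0 had an unadjusted p under 0.05, as 2.94, 3.13, 2.05, 2.12, 4.25 and 4.74% of all genes did in the same order, and with 3 libraries against 3 the exact permutation test cannot go below 0.1. Without the libraries numbered 2, 0 members passed in any population either. The study, with pairwise Cuffdiff tests, reports *Ccl2*, *Ccl7* and *Ccl9* as upregulated in AΦ at 4 weeks under PM2.5. In the fit used here their log2 fold changes in TR-AΦ at 4 weeks were 0.06, -0.006 and 1.0, with 95% intervals that held 0. That fit compares means of log2(FPKM + 1), and in plain FPKM the group means of all 3 genes were higher under PM2.5. For *Ccl2* and *Ccl7* the PM2.5 library numbered 2 read 49.1 and 30.8 FPKM. The other PM2.5 libraries read at most 4.93 and 0.765, and the FA libraries 3.74 to 22.7 and 0.516 to 12.3. Whether this accounts for the difference from the study's result was not tested.

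*Ccl6* had log2 fold changes of 0.33 (95% interval -0.45 to 1.11) in TR-AΦ at 4 weeks, -0.27 (-1.05 to 0.51) in TR-AΦ at 32 weeks and -0.24 (-1.03 to 0.54) in BM-AΦ. In monocytes they were 0.48 (-0.38 to 1.33) at 4 weeks, 0.16 (-0.69 to 1.01) in CD45.2 and -0.13 (-0.98 to 0.72) in CD45.1 cells at 32 weeks. All 6 intervals held 0 and reached at most 1.33 up and 1.05 down. The intervals of the low genes were wider, and those of *Ccl7* in TR-AΦ at 4 weeks ran from -2.22 to 2.21.

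The largest single difference was that of *Ccl5* in CD45.1 monocytes at 32 weeks. It read 7.08, 2.04 and 12.3 FPKM under FA and 16.0, 23.2 and 14.6 under PM2.5, without overlap, as 6.49% of genes did in that direction. The log2 fold change was 1.43 (95% interval -0.31 to 3.18, limma adjusted p = 0.952, exact permutation p = 0.1, the smallest possible). *Ccl4* in the same cells read 91.0, 47.5 and 46.5 under FA and 46.4, 42.0 and 19.0 under PM2.5 (-0.79, -1.83 to 0.24), again just without overlap, as 2.40% of genes did downward. In CD45.2 monocytes *Ccl5* gave 0.27 (-1.47 to 2.01), with 6.45, 7.32 and 5.18 FPKM under FA and 14.6, 8.70 and 3.44 under PM2.5. In TR-AΦ at 4 weeks *Ccl9* gave 1.0 (-0.66 to 2.66) and *Ccl4* -0.94 (-2.46 to 0.58), both with overlap. *Ccl12*, too low there to be fitted, read 0, 0 and 1.08 FPKM under FA and 1.85, 0.932 and 3.61 under PM2.5. Its log2 difference was 1.20 (exact permutation p = 0.2).

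**Figure D5:**
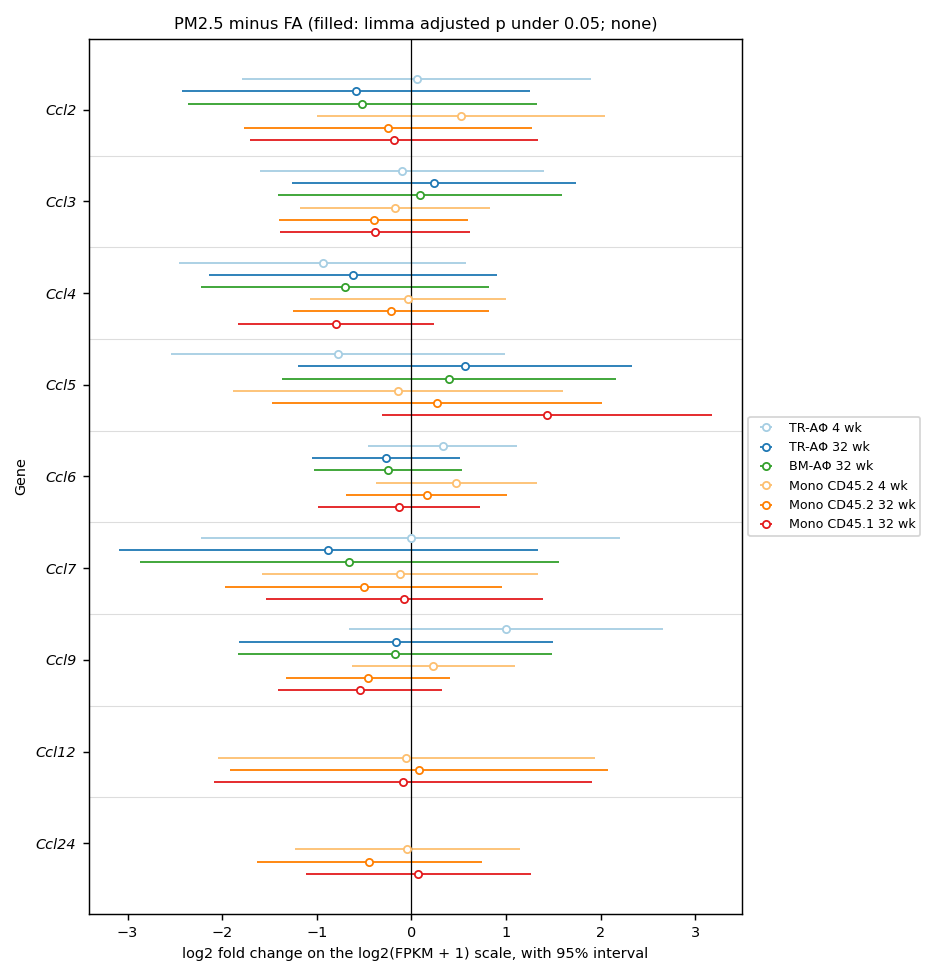
Fitted difference between PM2.5 and FA for each member (x axis, log2 fold change on the log2(FPKM + 1) scale, with its 95% interval) in the 6 populations, 3 libraries against 3 in each, with filled points for an adjusted p under 0.05. No point is filled, and the interval of every member spans 0 in every population in which it was tested.

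The difference between times, and between origins, in the effect of PM2.5 on AΦ was tested as well. Of 7 members 0 passed in either (limma adjusted p of 1, 0 with an unadjusted p under 0.05), where 0.0079% and 0.0158% of genes did (3.0% and 1.89% by unadjusted p). The widest values were *Ccl5* (1.35, -1.15 to 3.84) and *Ccl9* (-1.16, -3.50 to 1.18) for 32 against 4 weeks in TR-AΦ.

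Among themselves the 3 closest of the 36 pairs of members over all libraries were genes that stand next to each other on chromosome 11. As deviations of the 36 libraries from their group means, *Ccl6* and *Ccl9* had r = 0.85 (rho = 0.85, r = 0.83 without the 2 farthest libraries), *Ccl3* and *Ccl4* r = 0.83 (0.83, 0.75) and *Ccl2* and *Ccl7* r = 0.79 (0.72, 0.70). *Ccl6* and *Ccl9* thus shared their library-to-library spread while their means went in opposite directions between the cell types. Within the 18 monocyte libraries both were in turn high where *Ccl4* was low (r = -0.60 for *Ccl9* and -0.47 for *Ccl6*), while within the 18 AΦ libraries the same r were 0.54 and 0.24. In AΦ alone *Ccl7* and *Ccl24*, which lie on different chromosomes, came second of the 36 pairs (r = 0.89), after *Ccl6* and *Ccl9* (0.91) and before *Ccl2* and *Ccl7* (0.83) and *Ccl3* and *Ccl4* (0.82). *Ccl24* was near the floor in AΦ (median 0.218 FPKM, 6 of 18 libraries at 0). Its highest AΦ values, 2.31 and 3.37 FPKM, were those of the 4-week libraries numbered 2, as for *Ccl7*. The r of *Ccl7* and *Ccl24* was not computed without these libraries. The values of one library share its scaling, so part of any such r comes from there.

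Across the 12 group means the genes with the pattern most like each member (highest Pearson r on the log2(FPKM + 1) scale, no test) were *Emc8* (0.99), *Arfgap3* and *Bicd1* for *Ccl6* and *Gpr65* (0.99), *Gpr35* and *Ms4a4a* for *Ccl9*. For *Ccl2* they were *Junb* (0.98), *Socs3* and *Arap3*, for *Ccl3* *Eif3j1* (0.91), *Sar1a* and *Atf4*, for *Ccl4* *Gm14636* (0.97), *Zfp36* and *Mdm2*, and for *Ccl5* *Clec4a3* (0.98), *Scaf8* and *Gm28187*. *Ccl7* lay nearest to *Cltc* (0.95), *Cbr2* and *Ildr2*, *Ccl12* to *Fcna* (0.97), *Psd3* and *Olfml3*, and *Ccl24* to *Gas6* (0.97), *Cd55* and *Cd163*. With 0.1 in place of 1 added before the log, all 3 names returned for *Ccl3* and *Ccl4*, 2 for *Ccl2*, *Ccl6*, *Ccl9* and *Ccl12*, 1 for *Ccl5* and none for *Ccl7* and *Ccl24*, so the last 2 lists rest on the added value.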

How the data were processed

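Libraries were made from sorted cells of chimeric mice with a strand-marking SMART-Seq kit. Per the labels and the study's methods, the authors trimmed reads (TrimGalore), aligned them to mm10 (STAR) and estimated FPKM per gene with Cufflinks and Cuffdiff on a GENCODE annotation. The strand setting of the counting is not given in the sources used here. The deposited FPKM table (27562 genes, 36 libraries) was used as it stands, and no column of it was left out. FPKM holds no counts, so no counting interval can be given. No 2 libraries were identical. The labels do not name the animal of a library. The methods call the 3 libraries of a group biological replicates, and p-values measure the spread between them. By the study's account 3 mice of each exposure and time were chosen for sequencing. Libraries of different populations at the same time and exposure may thus share mice. Comparisons between populations took them as unpaired, in limma and in the permutation test.

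FPKM were taken to log2(FPKM + 1). Genes with a mean FPKM of at least 1 over the libraries fitted (12665 in AΦ, 12856 in monocytes, 13307 in both) were tested with limma 3.58.1 (R 4.3.3, trend in the prior variance) in 18 comparisons, with Benjamini-Hochberg adjustment over all genes and a threshold of 0.05. AΦ and monocytes were fitted apart, and together for comparisons between them. Fold changes carry SE or 95% intervals from that fit. Single genes were also tested by exact two-sided permutation over libraries. The fitting was tested on simulated data. Alternatives were a pseudocount of 0.1, no filter, quantile normalization, equal sums of FPKM, array weights, a fit of the groups compared alone, a block or term for the library number, and leaving out single libraries or all those numbered 2. For time within a population that block or term lay within each time point, so it gave the change at the libraries numbered 2. Python 3.11.15 and matplotlib 3.10.9 were used for the figures.

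The members and all gene lists were chosen with earlier results of these data known. Named from the lists were up to 4 genes past the threshold with the largest change, and for each member the 3 genes nearest in pattern. Genes named outside that rule (receptors of the members, and single markers) were chosen after their values were seen. Gene models are GENCODE on GRCm38, promoters RefSeq on GRCm38.p6, in which 4 of 9 members had an entry. The values of 1 receptor and the coding window of 1 member are not reported here.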

Additional observations from a re-analysis of the deposited data

Results flagged for a closer look

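In 2 members the change from 4 to 32 weeks differed between TR-AΦ and CD45.2 monocytes by a test of the difference itself. For *Ccl7* the change in TR-AΦ minus that in monocytes was -4.08 on the log2 scale, with a value of -1.26 in TR-AΦ that did not pass and a rise of 2.82 in monocytes. For *Ccl12* it was -3.20, with a rise of 2.61 in monocytes and a level in AΦ too low to test there alone, so that *Ccl12* entered this test through the 32-week monocytes in which it is high (adjusted p = 0.0116 by limma with no minimum level). The interstitial macrophage list moved in the same direction in this test (9 of 9 genes lower, median -4.22), and its part in the result was not tested.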

How the results depend on the processing

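The count of members past the threshold stayed within 1.5 times its value under every alternative run for AΦ against monocytes, BM-AΦ against TR-AΦ, the difference in the effect of time, and PM2.5 in all 6 populations and both differences of its effect, the last 8 and BM-AΦ against TR-AΦ at 0 throughout. For CD45.1 against CD45.2 monocytes it went from 1 to 0 with a pseudocount of 0.1 (*Ccl7* -2.72, adjusted p = 0.329), with no filter (-2.33, 0.0784) and without all libraries numbered 2, and was 0 to 1 without single libraries. For time in TR-AΦ it went from 0 to 1 under FA without all libraries numbered 2 (*Ccl4* -3.36, 0.0277) and was 0 to 1 without single libraries, from 0 to 1 under PM2.5 with a term for replicate 2 (*Ccl2* -2.99, 0.0497), and with both exposures from 1 to 0 in the groups compared alone and to 2 with a term for replicate 2, and was 0 to 1 without single libraries. For time in monocytes it was 3 to 5 without single libraries, the 3 without PM2.5 library 2 of 4 weeks. For changes over time the term for replicate 2 gave the value at the libraries numbered 2. Except where fewer libraries or more genes entered, the cause was not tested.

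Not every pair of same-numbered libraries deviated together: of 36 such pairs at 32 weeks with the same exposure 2 had a correlation over 0.1 (-0.04 to 0.16), and of 6 at 4 weeks none (-0.02 to 0.08). Between exposures 4 of 12 same-numbered pairs at 4 weeks (-0.087 to 0.21) and 2 of 48 at 32 weeks (-0.082 to 0.13) were over 0.1. The median r was higher for same-numbered than for differently numbered pairs each time. With the same exposure it was 0.054 against -0.012 at 4 weeks and 0.033 against -0.022 at 32 weeks. Between exposures it was 0.081 against -0.027 and 0.0087 against -0.0013. The reported fits were not blocked because the labels do not name the animal, and whether a number marks 1 animal was not tested. For time within a population the replicate block lay within each time point, so that fit gave the change at the libraries numbered 2. It is not a mean change corrected for the block. In that fit the count for TR-AΦ under PM2.5 went from 0 to 1 (*Ccl2* -2.99, limma adjusted p = 0.0287). With both exposures it stayed 1 with *Ccl2* (-2.67, 0.0150) in place of *Ccl4* (-2.19, 0.170). For time in monocytes that fit lost *Ccl12* (1.76, 0.115) and gained *Ccl3* (-1.57, 0.0177). For the difference in the effect of time the block left the values unchanged, and *Ccl24* was gained (-1.71, 0.0167).

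Members that changed sign under an alternative were all short of the threshold as reported. With array weights the sign turned for *Ccl24* (-0.032) for AΦ against monocytes at 4 weeks, *Ccl6* (0.13) for CD45.1 against CD45.2 monocytes, *Ccl3* (0.0088) and *Ccl7* (0.13) for PM2.5 in TR-AΦ at 4 weeks, *Ccl9* (0.19) for PM2.5 in BM-AΦ, *Ccl24* (0.23), *Ccl12* (0.13) and *Ccl7* (0.20) for PM2.5 in monocytes at 4 weeks, *Ccl12* (-0.30) for PM2.5 in CD45.2 monocytes at 32 weeks and *Ccl7* (0.069) for PM2.5 in CD45.1 monocytes. Without all libraries numbered 2 the sign turned for *Ccl24* (-0.38), *Ccl12* (-0.026) and *Ccl7* (-0.89) for AΦ against monocytes at 4 weeks, *Ccl3* (-0.11) for AΦ against monocytes in CD45.1 cells, *Ccl3* (0.76) for time in TR-AΦ under PM2.5, *Ccl9* (-0.083) for time in monocytes, *Ccl2* (-0.45) for PM2.5 in TR-AΦ at 4 weeks, *Ccl4* (0.38), *Ccl9* (0.23) and *Ccl5* (-0.12) for PM2.5 in TR-AΦ at 32 weeks, *Ccl24* (0.68) for PM2.5 in monocytes at 4 weeks, *Ccl4* (0.15), *Ccl12* (-0.49) and *Ccl2* (0.048) for PM2.5 in CD45.2 monocytes at 32 weeks and *Ccl6* (0.15) for PM2.5 in CD45.1 monocytes. With equal sums of FPKM the sign turned for *Ccl7* (0.10) for AΦ against monocytes in CD45.1 cells and *Ccl3* (0.038), *Ccl4* (0.18), *Ccl5* (0.065), *Ccl12* (0.019) and *Ccl7* (0.022) for PM2.5 in monocytes at 4 weeks. With the replicate block and with a term for replicate 2, both read at the libraries numbered 2, the sign turned for *Ccl9* for time in TR-AΦ (0.049 in both). With a pseudocount of 0.1 the sign turned for *Ccl2* (-0.0088) for PM2.5 in TR-AΦ at 4 weeks and *Ccl12* (0.52) for PM2.5 in CD45.1 monocytes. With quantile normalization the sign turned for *Ccl24* (-0.046) for PM2.5 in CD45.1 monocytes. Without single libraries the ranges that crossed 0 were *Ccl24* (-0.19 to 0.36) for AΦ against monocytes at 4 weeks, *Ccl7* (-0.39 to 0.051) for AΦ against monocytes in CD45.1 cells, *Ccl6* (-0.045 to 0.26) for BM-AΦ against TR-AΦ, *Ccl6* (-0.23 to 0.14) for CD45.1 against CD45.2 monocytes, *Ccl9* (-0.23 to 0.81) for time in TR-AΦ under FA, *Ccl3* (-0.65 to 0.50) and *Ccl5* (-0.84 to 0.47) for time in TR-AΦ under PM2.5, and *Ccl9* (-0.050 to 0.24) for time in monocytes. For PM2.5 in AΦ they were *Ccl3* (-0.83 to 0.32), *Ccl5* (-1.75 to 0.064), *Ccl7* (-1.42 to 0.77) and *Ccl2* (-1.12 to 0.87) for PM2.5 in TR-AΦ at 4 weeks, *Ccl3* (-0.30 to 1.04), *Ccl4* (-1.17 to 0.20) and *Ccl9* (-0.67 to 0.37) for PM2.5 in TR-AΦ at 32 weeks, and *Ccl3* (-0.14 to 0.54), *Ccl6* (-0.44 to 0.12) and *Ccl9* (-0.65 to 0.62) for PM2.5 in BM-AΦ. In the monocytes they were *Ccl3* (-0.29 to 0.0025), *Ccl24* (-0.39 to 0.40), *Ccl4* (-0.29 to 0.32), *Ccl5* (-1.14 to 0.58), *Ccl12* (-0.45 to 0.40) and *Ccl7* (-0.81 to 0.56) for PM2.5 in monocytes at 4 weeks, *Ccl3* (-0.96 to 0.081), *Ccl6* (-0.029 to 0.52), *Ccl4* (-0.59 to 0.34), *Ccl5* (-0.15 to 0.76), *Ccl12* (-0.99 to 0.79) and *Ccl2* (-0.77 to 0.36) for PM2.5 in CD45.2 monocytes at 32 weeks, and *Ccl3* (-0.67 to 0.00014), *Ccl24* (-0.29 to 0.62), *Ccl6* (-0.58 to 0.16), *Ccl12* (-0.92 to 0.44), *Ccl7* (-0.43 to 0.26) and *Ccl2* (-0.61 to 0.32) for PM2.5 in CD45.1 monocytes.

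Equal sums of FPKM moved the median of all genes by 0.23, 0.14 and 0.33 for AΦ against monocytes (4 weeks, CD45.2 and CD45.1 cells at 32 weeks), by -0.13 for CD45.1 against CD45.2 monocytes, by 0.10 for time in monocytes, by -0.10 for the difference in the effect of time and by 0.16 for PM2.5 in monocytes at 4 weeks. For AΦ against monocytes the genes higher and lower then numbered 4247 and 2127 (3011 and 3397 as reported), 3811 and 2393 (3141 and 3150) and 5479 and 1867 (3601 and 3166), for time in monocytes 1107 and 520 (908 and 1006), for that difference 149 and 605 (470 and 579), for time in TR-AΦ 68 and 277 (324 and 424), or 9 and 73 (34 and 99) under PM2.5, and for BM-AΦ against TR-AΦ 20 and 17 (17 and 23). Over all genes the calls ran over the alternatives from 15 to 98 for BM-AΦ against TR-AΦ (40 as reported), 36 to 167 for CD45.1 against CD45.2 monocytes (86), 14 to 158 and 18 to 259 for time in TR-AΦ under FA (99) and PM2.5 (133), 345 to 928 with both (748), 989 to 2198 for time in monocytes (1914) and 716 to 1808 for the difference (1049), and were at most 12 for any effect of PM2.5. With 3 libraries a group and no counts, the low levels of *Ccl12* and *Ccl24* are the least certain.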
